A study of Drosophila melanogaster with 4 samples.

Results

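The 4 core clock genes period (per), timeless (tim), vrille (vri) and Clock (Clk) were examined for RPD3 occupancy in heads of adult flies. RPD3 is a Drosophila class I histone deacetylase, an enzyme that removes acetyl groups from histones as part of corepressor complexes. Members were the enriched clusters that overlap 4 fixed intervals on release 5 of the genome. These run on the X from 2575000 to 2591000 for per, on 2L from 3485000 to 3516000 for tim and from 5290000 to 5332000 for vri, and on 3L from 7750000 to 7785000 for Clk. They held 12 of the 5550 clusters of replicate 1, 11 of the 5872 clusters of replicate 2 and 14 of the 7386 clusters of the authors' combined list.

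The study used chromatin immunoprecipitation with sequencing on nuclei from heads of wild-type Oregon-R flies (official name Oregon-R-modENCODE), labelled as mixed adults, with the RPD3 antibody Q3451. There were 2 ChIP samples and 2 inputs, all from this 1 strain and genotype, and the lists come from the ChIP samples. Flies were raised in population cages on a 22-day adult cycle and heads were collected by sieving. The labels name no light schedule, no hour of collection and no separate cultures behind the replicates, so spreads given here may be technical.

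In the fly clock, CLOCK and its partner CYCLE bind E-box elements and switch on per, tim and vri. PERIOD and TIMELESS build up, enter the nucleus and inhibit CLOCK and CYCLE, which closes the daily loop. VRILLE, a bZIP repressor, acts in a second loop by turning down Clk. In the head the loop runs in photoreceptors, some glia and a small set of brain neurons, so a whole-head sample mixes cells with and without a running clock. Weak occupancy in most cells and strong occupancy in few cells cannot be told apart in such a sample.

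All 4 intervals held clusters in both replicates, and they differed in how many, how strong and how repeatable these were. The per interval held 2 clusters in replicate 1 and 1 in replicate 2. The tim interval held 2 in each. The vri interval held 5 and 3, and the Clk interval held 3 and 5. Means were 1.5 ± 0.707, 2 ± 0, 4 ± 1.41 and 4 ± 1.41 clusters (SD, n = 2), so vri and Clk were not separated by number. The intervals differ in length, from 16 kb for per to 42 kb for vri, and per 10 kb the means were 0.937 for per, 0.645 for tim, 0.952 for vri and 1.14 for Clk.

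Holding a cluster was common in intervals of these lengths. Of windows of the per length laid end to end along the X, 47.8% held a cluster in replicate 1 and 48.8% in replicate 2. Of windows of the tim length along 2L, 63.5% and 67.4% did. For the vri length on 2L the shares were 72.2% and 77.1%, and for the Clk length on 3L they were 67.5% and 73%. Having a cluster at all is read against these shares and is no result about the clock genes.

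**Figure D1:**
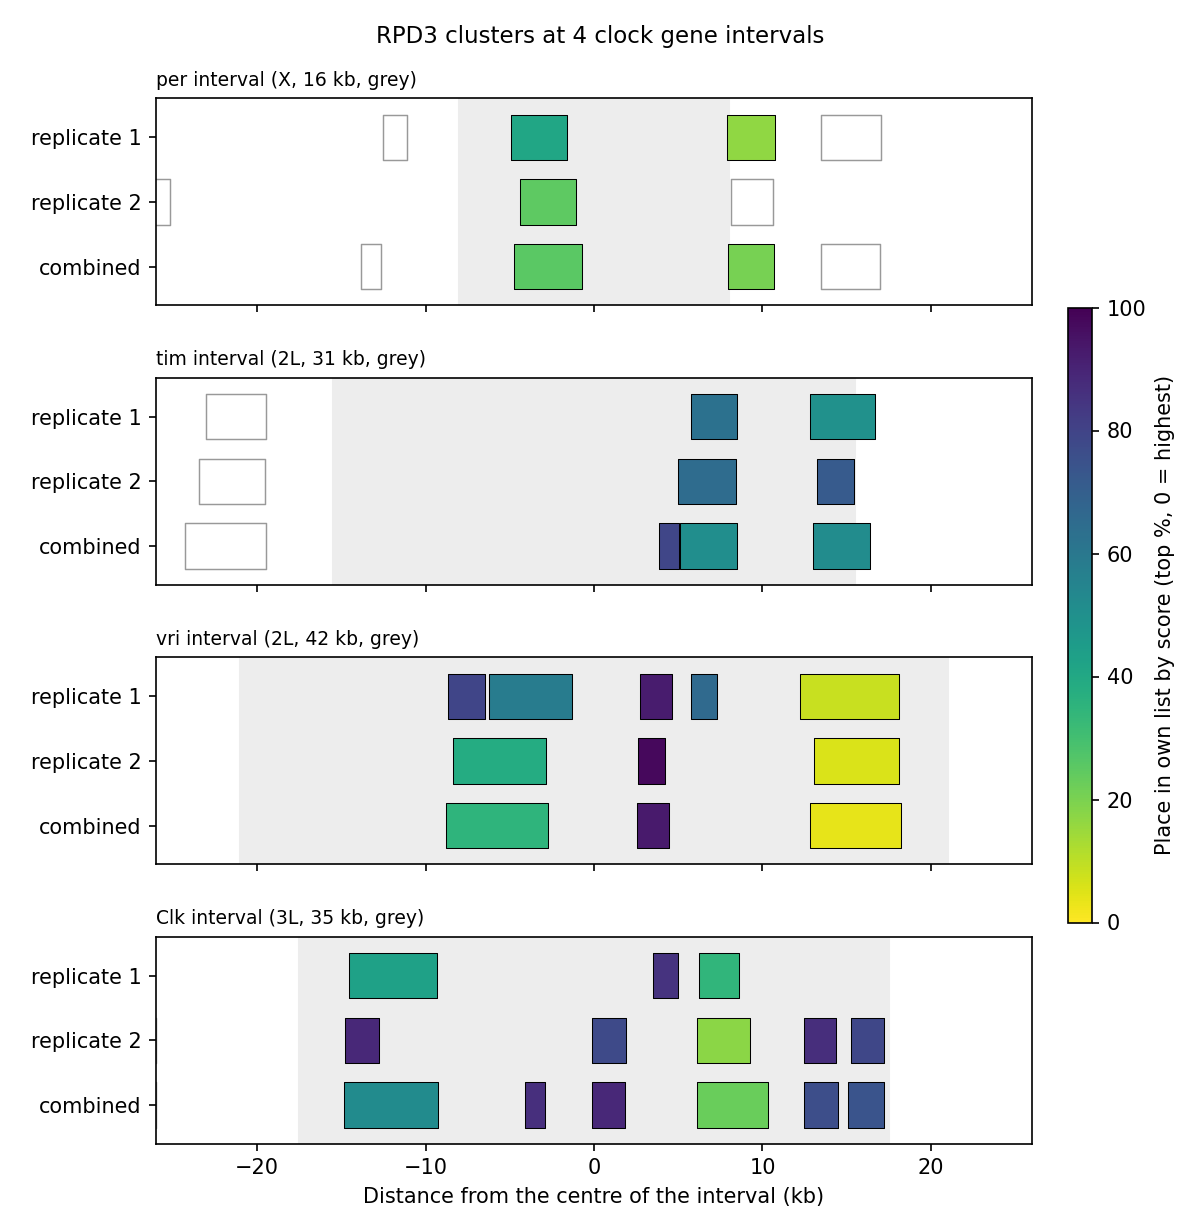
Clusters of the 3 lists (rows) at each interval (grey), by distance from the interval's centre in kb. Filled bars are members, coloured by place in their own list by the authors' score (0 is the highest-scoring cluster), and open bars are the nearest clusters outside the interval that fall in the plotted range. The cluster at the right of the vri interval is among the best 10% in every list, while the tim clusters lie near or below the middle.

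Clusters belong to an interval and were not assigned to the clock gene itself or to a neighbour, because no annotation of release 5 was used here. In the order of a RefSeq gene table of release 6, the nearest protein-coding genes were CG2652 and dyw for per, CG15414 and CG31954 for tim, and Bub1, a kinase of the spindle checkpoint, and CG14024 for vri. For Clk they were Hn, the phenylalanine hydroxylase gene, and CG32369, with CG32371 nested in Clk. Overlapping clusters of the 3 lists were grouped into sites, of which there were 15. A site counted as present in a list also where its cluster lay past the interval's edge.

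The per interval had 2 sites, and both were found in both replicates. PERIOD is the protein that inhibits CLOCK and CYCLE in the loop. The first site was X:2578088-2581403 in replicate 1 and X:2578593-2581926 in replicate 2, where the clusters were 3316 and 3334 bp wide and shared 2811 bp. Its score ranked 2264 in replicate 1, in the top 40.8% of the list, and 1449 in replicate 2, in the top 24.7%. The combined list gave it 4023 bp at X:2578252-2582274 and placed it in the top 25.5%. The authors' score, which is read here within a list only, was 0.89, 1.23 and 0.97 in replicate 1, replicate 2 and the combined list, whose medians were 0.78, 0.86 and 0.59. It was the single per site wholly inside the interval in each list.

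The second per site lay across the interval's right edge. In replicate 1 it lay at X:2590899-2593740 and stood in the top 16.7% of the list, the highest rank of the per members. Its replicate 2 counterpart, X:2591161-2593610 in the top 35.7%, began 161 bp past the edge and is therefore no member. The number of per clusters and the rank of its best cluster depend on this edge. With clusters counted by their midpoint, per had 1 cluster in each replicate, and its best rank moved from the top 20.7% ± 5.63 to the top 32.7% ± 11.4 (SD, n = 2).

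The tim interval had the lowest-scoring best cluster of the 4, at the top 49.9% in replicate 1 and the top 65% in replicate 2. TIMELESS binds PERIOD and is degraded in light, which sets the clock to the day. The first tim site was 2L:3506287-3508977 in replicate 1 and 2L:3505480-3508953 in replicate 2, with scores of 0.66 and 0.67, both under the list medians. Its right end differed by 24 bp between them. It ranked in the top 62.7% and the top 65%, so it stood at nearly the same place in both lists. In the combined list the same stretch was split into a cluster of 1155 bp (2L:3504382-3505536) and one of 3415 bp (2L:3505586-3509000).

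The second tim site reached the interval's right edge. Replicate 1 had it at 2L:3513345-3517163 (score 0.78, top 49.9%) and replicate 2 at 2L:3513756-3515958 (score 0.60, top 71.7%). The replicate 2 cluster lay wholly within the replicate 1 cluster and took up 57.7% of it. The remaining part of the interval was empty over 21287 bp in replicate 1 and 20480 bp in replicate 2, the longest uncovered stretches of the 4 intervals. In the better-scoring 50% of each list, tim kept 1 cluster in replicate 1 and none in replicate 2, a mean of 0.5.

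The vri interval held the highest-scoring cluster of the 4 intervals in each list, but this cluster may not lie on vri. The selection rule takes the numbering of releases 5 and 6 as equal on 2L here. If that holds, which was not checked, the cluster overlaps Ncoa6, cype and CG14022 and not vri, by the gene table of release 6. These genes were named after the cluster's values were seen. Its rank and the bases it covers, here and below, are those of the interval, not of vri. Replicate 1 had it at 2L:5323222-5329119 (5898 bp) and replicate 2 at 2L:5324036-5329082 (5047 bp), the latter wholly within the former. Its score was 1.37 in replicate 1, 1.71 in replicate 2 and 1.51 in the combined list. It ranked 456 in replicate 1, the top 8.22%, and 336 in replicate 2, the top 5.72%. In the combined list it ranked 288, the top 3.9%. Its midpoint lay 15170 bp right of the interval's centre in replicate 1 and 15559 bp in replicate 2. Among the members it was the 1 cluster in the best 10% of either replicate.

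The other vri sites scored lower and were less alike in shape. A site left of the interval's centre was 1 cluster in replicate 2, 2L:5302644-5308121, in the top 38.3%. In replicate 1 it was split in 2, namely 2L:5302342-5304553 (top 79.4%) and 2L:5304785-5309666 (top 58.3%). The combined list gave 1 cluster of 6071 bp in the top 35%. A narrow site was found at 2L:5313717-5315615 in replicate 1 and at 2L:5313586-5315230 in replicate 2. It recurred although it was among the weakest clusters of both lists, in the top 92.2% and the top 97.8%. The last vri site, 2L:5316786-5318309 in replicate 1 (1524 bp, top 65.8%), overlapped no cluster of replicate 2 or of the combined list.

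The Clk interval had the most sites, 7, and the lowest share in common, since 2 of the 7 were found in both replicates. Of the 7, 1 was in the combined list alone and so in neither replicate. CLOCK is the bHLH-PAS activator of the loop. Its strongest site was 3L:7773729-7776126 in replicate 1 (score 0.97) and 3L:7773620-7776772 in replicate 2 (score 1.38). The replicate 1 cluster lay wholly within the replicate 2 cluster, and the ranks were the top 34.6% and the top 17.3%. The combined list placed it in the top 22.9%.

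The other recurring Clk site met over a small part of its length. In replicate 1 it was 5194 bp wide (3L:7752982-7758175, score 0.87), in the top 42.7%. In replicate 2 it was 2001 bp wide (3L:7752713-7754713, score 0.45), in the top 89%. The clusters shared 1732 bp, or 33.3% of the replicate 1 cluster, and the right ends lay 3462 bp apart.

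The 5 remaining Clk sites were each missing from at least 1 replicate. Of the replicates, replicate 2 alone had clusters at 3L:7767386-7769420, 3L:7779950-7781841 and 3L:7782744-7784688, in the top 77.5%, 87% and 78.8% of its list. All 3 had counterparts in the combined list. Replicate 1 alone had a cluster at 3L:7770977-7772503, in the top 85.5%, which was in no other list. The combined list alone had a cluster at 3L:7763396-7764586. It was 1191 bp wide, narrower than any replicate cluster, the narrowest of which were 1301 and 1302 bp.

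**Figure D2:**
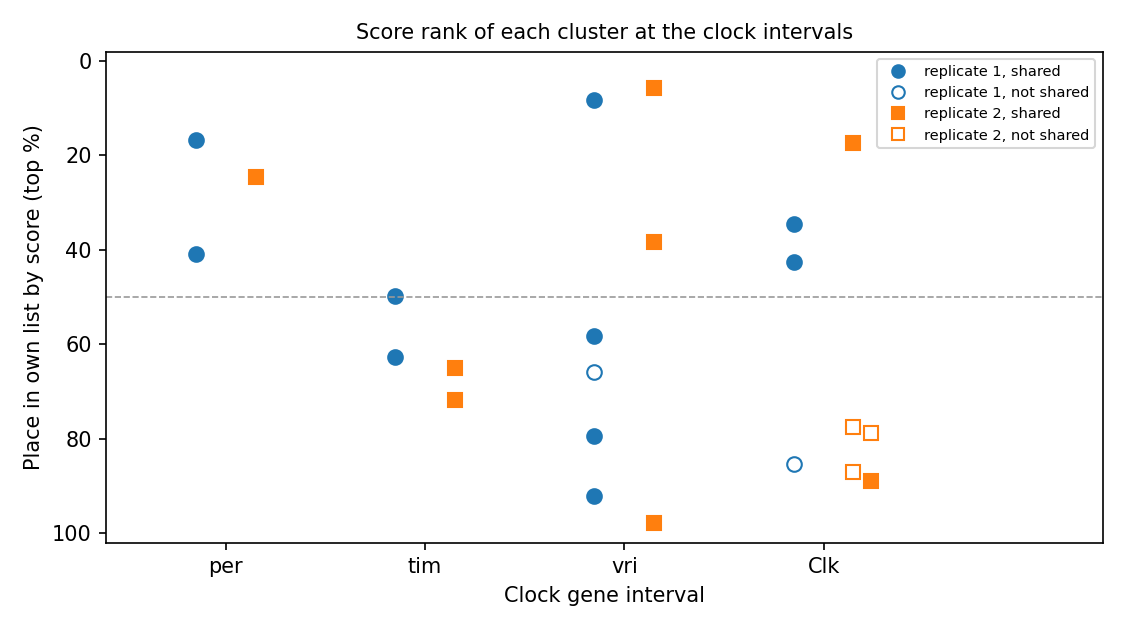
Place of each member cluster in its own list by score (vertical axis, top % with the highest-scoring cluster at the top) for the 4 intervals. Filled symbols overlap a cluster of the other replicate and open symbols do not. Points close in value are set slightly apart sideways. All open symbols lie below the dashed line, which marks the middle of each list.

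Across the 4 intervals, 10 of the 12 replicate 1 clusters overlapped a replicate 2 cluster by at least 1 bp, or 83.3% (95% exact interval 51.6 to 97.9). Over the whole replicate 1 list the share was 83.9%. Of the 11 replicate 2 clusters, 8 overlapped replicate 1, or 72.7% (39 to 94), against 82.2% over the whole list. Of the 14 combined clusters, 9 overlapped both replicates, where 61% of all combined clusters did. The remaining ones overlapped replicate 2 alone in 4 cases and neither in 1. Both intervals include the value of the whole list. They cover counting error over few clusters, and neighbouring clusters of a locus are not independent.

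All clusters that did not recur came from vri and Clk. In replicate 1 they ranked in the top 65.8% and 85.5%, and in replicate 2 between the top 77.5% and 87%. Recurring clusters spanned nearly the whole range, the top 8.22% to 92.2% of replicate 1 and the top 5.72% to 97.8% of replicate 2. Low rank therefore did not by itself separate the sites that recurred from those that did not. By site, 9 of 15 were found in both replicates, namely 2 of 2 at per, 2 of 2 at tim, 3 of 4 at vri and 2 of 7 at Clk. The 15 include 1 site, at Clk, that the combined list alone had. The share of sites was not calculated over the whole lists, so these counts cannot be called high or low. The loci were not tested against each other, with 1 to 5 clusters per locus and list.

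As a whole the clock clusters scored near the middle of the list in replicate 1 and below it in replicate 2. The median member stood in the top 54.1% of replicate 1 and the top 71.7% of replicate 2, where the middle of a list is 50%. In replicate 1, 6 of 12 members were in the better-scoring 50%, and in replicate 2 it was 4 of 11. Their median width was 2767 bp in replicate 1 and 2203 bp in replicate 2, beside 2609 and 2511 bp for all clusters. The widest were 5898 and 5478 bp, both at vri.

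**Figure D3:**
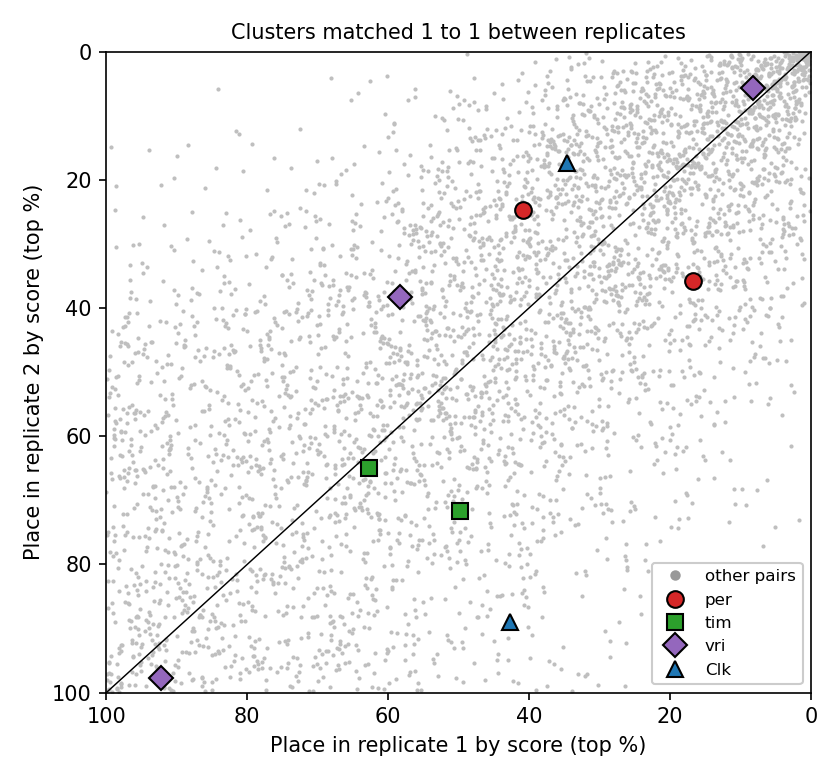
Place by score in replicate 1 (horizontal axis) and replicate 2 (vertical axis), both in top % with the highest scores at the upper right, for clusters matched 1 to 1 between the replicates. Coloured symbols are the clock pairs (2 each for per, tim and Clk and 3 for vri) and grey points are the 4480 others. A vri pair lies near the upper right corner, a vri pair near the lower left, and the 7 remaining clock pairs spread between them on both sides of the line of equal rank.

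Ranked by the best cluster, the vri interval came first in both replicates (top 6.97% ± 1.76, SD, n = 2) and tim last (57.4% ± 10.7). The per interval (20.7% ± 5.63) and the Clk interval (26% ± 12.2) changed places between replicates and were not separated. This change of places rests on the replicate 1 cluster across the per interval's edge. With clusters taken by midpoint, per stood in the top 40.8% and 24.7% of replicates 1 and 2. Clk then stood in the top 34.6% and 17.3%, ahead of per in both. A longer interval has more chances of a high-scoring cluster, and vri has the longest of the 4.

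By extent, clusters covered 39.1% of the vri interval in replicate 1 and 29% in replicate 2. They covered 26.1% and 31.5% of the Clk interval, 21.4% and 20.8% of the per interval, and 17.2% and 18.3% of the tim interval. Both vri and Clk lay above per and tim in each replicate, and they changed places with each other. The best cluster of the vri interval, which may not lie on vri, made up 5898 of its 16415 covered bases in replicate 1. In replicate 2 it made up 5047 of 12170. The covered share of vri without this cluster was not calculated. The share of per and of tim differed little between replicates, with means of 21.1% ± 0.371 and 17.8% ± 0.753 (SD, n = 2), while those of vri and Clk were 34% ± 7.15 and 28.8% ± 3.85. The combined list covered 48.8% of Clk, above either replicate and 1 more cluster than replicate 2, and 31.8% of vri.

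By covered share, against windows of the same length on the same arm, vri and Clk lay above the middle 50% of windows in both replicates, and per and tim lay within it. The place of vri rests in part on its best cluster, which may not lie on the gene. For vri, 49 of 547 windows on 2L (8.96%) were covered at least as much in replicate 1 and 79 (14.4%) in replicate 2, where the median window was covered at 7.76% and 9.72%. For Clk, 135 of 701 windows on 3L (19.3%) and 88 (12.6%) were. For per the shares were 26.6% and 27.1% of 1401 windows on the X, and for tim they were 30.3% and 30.9% of 742 windows on 2L. The median window of the per length was empty in both replicates. By cluster number the order was less clear. Windows with at least as many clusters as the interval made up 9.87% in replicate 1 and 33.1% in replicate 2 for vri, and 28.1% and 6.7% for Clk. They made up 24.8% and 48.8% for per, and 37.3% and 42% for tim. By number, vri in replicate 1, Clk in replicate 2 and per in replicate 1 lay above the middle 50% of windows, and the others lay within it. Windows hold genes and gene-free sequence alike, so these shares describe place on the arm and are no test.

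**Figure D4:**
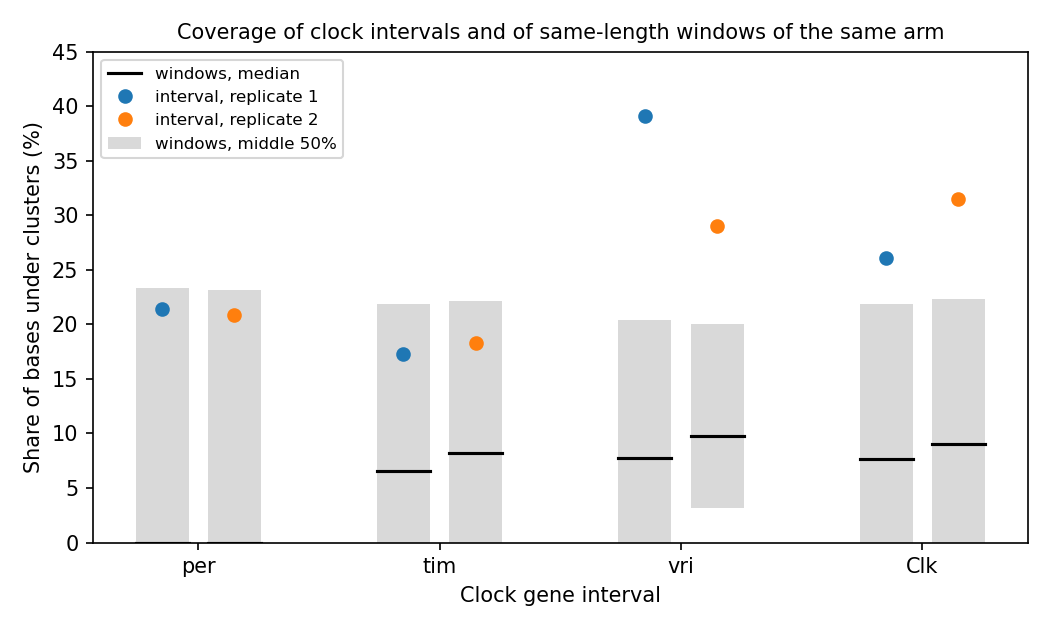
Share of bases under clusters in each clock interval (points, 1 per replicate) beside windows of the same length laid end to end along the same arm in the same list (grey bar from the 25th to the 75th percentile, black line at the median). Points of vri and Clk lie above their grey bars, and points of per and tim lie within them. The vri points include the best cluster of that interval, which may not lie on vri.

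The replicates agreed on position better at tim, per and vri than at Clk. Of the bases covered in either replicate, 79.1% were covered in both at tim, 71.3% at per and 70.4% at vri, and 25.8% at Clk. Bases past an interval's edge were not counted. At tim this left out the end of the replicate 1 cluster that runs to 3517163, where replicate 2 had no cluster. At per it left out the 2450 bp that the replicates shared at the edge site. The order of tim and per is therefore not interpreted. Over the 4 intervals together 23619 of 42887 bases were covered in both, or 55.1%, and over the whole lists the share was 63.3%. Among the 10 overlapping replicate 1 clusters, starts differed from those of the replicate 2 cluster by a median of 357 bp and ends by 585 bp. Over all 4655 overlapping clusters these medians were 252 and 249 bp. Both parts of the vri site split in replicate 1 were matched to the same replicate 2 cluster, with ends 3568 and 1545 bp apart. Such splitting enters the medians of the 4 intervals and of the whole list alike.

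Clusters just outside the intervals were in places stronger than the members. Right of per, 5472 bp past the edge, replicate 1 had a cluster at X:2596472-2600065 in the top 3.46% of the list. Left of vri, a cluster that ended at 5280962 in replicate 1 and at 5280260 in replicate 2 stood in the top 6.68% and the top 18.3%, 9038 and 9740 bp from the edge. It ranked above the best vri member in replicate 1 (top 8.22%) but below it in replicate 2 (top 5.72%). Left of tim, 3950 and 4030 bp from the edge, a cluster stood in the top 14.2% and the top 44.5%, above both tim members in each replicate. At Clk the nearest clusters to the right, 12223 and 12114 bp away, were in the top 86.7% and the top 48.3%.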

How the data were processed

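RPD3 ChIP and input were sequenced from adult fly heads. The submitters' processing notes list Bowtie 0.12.7. Neither the caller of the clusters nor its threshold is stated, and read depth is unknown. The deposited lists give each enriched cluster's position (1-based, FlyBase release 5, per the file headers) and the authors' score, whose scale the headers do not name. Raised as powers of 2, the 5 highest distinct combined scores were 13, 12, 11, 10 and 9 times 1 step, as a log2 ratio would be. This did not settle the replicate scores, so scores only ranked clusters within a list. "Top" percent is rank over list length. How the combined list was made is not stated. It was never counted as a replicate, and its 1 region named as depleted was left out.

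Members overlapped an interval by at least 1 bp, and recurrence was sought in the whole other list. Members and alternatives were chosen with earlier results of these data known. The named genes are the 4 members and their nearest protein-coding neighbours, plus those over the best cluster of the vri interval. No test over samples was possible with 1 group of 2 lists. The functions were tested on simulated data. Other clock genes and promoter sequences were not analysed here, since no genome or annotation of release 5 was used, and the gene table of release 6 served for names and neighbours. Inputs were not analysed here. Exact intervals are Clopper-Pearson. The work used Python 3.11.15, pandas 2.3.3, numpy 2.4.6, scipy 1.17.1 and matplotlib 3.10.9.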

Additional observations from a re-analysis of the deposited data

How the results depend on the processing

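In the better-scoring 50% of each list the mean number of clusters fell from 2 to 0.5 at tim, from 4 to 1.5 at vri and from 4 to 1.5 at Clk, and the covered share fell to 4.28%, 19.6% and 15.3%, which follows from keeping fewer clusters. At per neither moved. Shortening each interval by 2 kb at both ends took the covered share of per from 21.1% to 27.7% and that of tim from 17.8% to 13.1%. With the combined list the number of clusters was 2 at per, 3 at tim, 3 at vri and 6 at Clk, up to 1.5 times the mean of the replicates. Its covered share was 25.6% at per, 22.7% at tim and 48.8% at Clk, and the best vri cluster stood in the top 3.9%. The best per cluster moved to the top 29% when ranked among X clusters and to the top 32.7% with clusters taken by midpoint. Each replicate alone gave 1 to 2 clusters at per, 2 at tim, 3 to 5 at vri and 3 to 5 at Clk, covered shares of 20.8% to 21.4%, 17.2% to 18.3%, 29% to 39.1% and 26.1% to 31.5%, and best ranks in the top 16.7% to 24.7%, 49.9% to 65%, 5.72% to 8.22% and 17.3% to 34.6%. Recurrence stayed between 66.7% and 83.3% for replicate 1 and between 72.7% and 75% for replicate 2 under the stricter overlap, the better-scoring 50%, midpoints and joining of clusters under 500 bp apart. Of 80 values, 66 moved by no more than 1.5 times for counts, by less than the spread between replicates for covered shares and ranks, or within the exact interval for recurrence. With 2 replicates, either replicate alone always lies within that spread of their mean, so those covered shares and ranks could not count as moved. The exact intervals are wide, so few recurrence values could leave them. The count of 66 is therefore no measure of robustness. No paired analysis was possible because only 1 group, the ChIP samples, has cluster lists here. The lists hold no reads, so limits set by depth are unknown.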
